A study of Mus musculus with 12 samples.

Results

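Transcript levels of 10 genes of mitophagy, autophagy and their regulation were followed through terminal erythroid differentiation in mouse bone marrow. The genes were the mitophagy receptors Bnip3l and Bnip3, the kinase Ulk1, the LC3 and GABARAP genes Map1lc3a, Map1lc3b, Gabarapl1 and Gabarapl2, the cargo receptor Sqstm1, the conjugation enzyme Atg7 and the transcription factor Foxo3. They were taken by gene symbol from a table of 29838 genes. All 10 were found, and all 10 were among the 12994 genes tested, which had at least 1 FPKM in at least 3 libraries. FPKM is the number of fragments per kilobase of transcript, scaled to the mapped fragments of the library, so that genes of different length can be set side by side within a library.

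RNA was sequenced from proerythroblasts (Pro), basophilic (Baso), polychromatic (Poly) and orthochromatic (Ortho) erythroblasts, with 3 libraries for each of the 4 stages. The cells came from wild-type male C57BL/6 mice aged 8 weeks, and no treatment was named for any group. After depletion of CD45-positive cells, Pro cells were sorted as high in CD44 and low in Ter119, and the other stages were gated among Ter119-positive cells by CD44 and cell size, with CD45, CD11b and GR1 as a negative gate. The sources used here do not say whether the libraries of a stage came from separate mice, so that p-values measure only the spread between these libraries.

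Autophagy encloses cytoplasm in a double membrane and delivers it to the lysosome, and mitophagy does the same to mitochondria. Maturing red cells are known to discard their mitochondria, and mitophagy is a known route. In it BNIP3L (also called NIX) acts as a receptor on the mitochondrial outer membrane that binds LC3 and GABARAP proteins on the forming membrane. FOXO3 is a forkhead transcription factor known for its control of autophagy and antioxidant genes, in erythroblasts among other cells.

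As a check of the stage labels, 8 of 9 late erythroid markers were called higher in Ortho than in Pro, where genes were called from an adjusted p under 0.05 by limma together with a log2 fold change of 1 or more in size. The hemoglobin genes took between 6.98 and 10.7% of the summed FPKM in Pro, 33.2 to 36.7% in Baso, 34.8 to 37.6% in Poly and 47.2 to 52.6% in Ortho. In Poly vs. Baso, 0 of the 9 late markers had an adjusted p under 0.05 (limma), with a median log2 fold change of 0.03. The late markers and the hemoglobin shares therefore did not separate Baso from Poly. Of the 4 early markers, which are known from progenitors, 3 rose and 0 fell in Ortho vs. Pro. Gata2 was called higher, from a mean of 13.0 to 27.4 FPKM, Cd34 went from 8.58 to 16.7 and Myb rose by 0.37 (log2, adjusted p = 0.00731, limma), while Kit differed by -0.28 (adjusted p = 0.134, limma). With libraries rescaled to the same sum, Gata2 was not called at 0.67, Myb did not pass the test (adjusted p = 0.925, limma) and Kit fell by 0.63 (adjusted p = 0.00449, limma). Genes of other blood cells were present in every stage. The 9 neutrophil markers summed to between 7061 and 8916 FPKM in Pro and between 14070 and 17480 in Ortho, and all 9 had an adjusted p under 0.05 (limma) for a higher level in Ortho than in Pro, whereas 0 of 9 did in Ortho vs. Poly, also at an unadjusted p under 0.05. Of the 9 macrophage markers, 5 were below the filter, namely C1qa, C1qb, C1qc, Mrc1 and Cd5l, 2 of the other 4 were called higher in Ortho than in Pro, and the sum of the 9 ranged from 29.4 to 35.2 FPKM in Pro and from 62.3 to 74.1 in Ortho. The 7 B cell markers summed to 138.0 to 220.7 FPKM in Pro and 431.5 to 442.6 in Ortho, with 5 of 7 called higher. Of 6 T and NK cell markers 2 passed the filter and 0 were called in Ortho vs. Pro (both had an adjusted p under 0.05, limma), with Cd3e and Cd3g at 0 in all Ortho libraries, and of 6 megakaryocyte markers 3 were called lower. The part of these cells in the results below was not tested. In bulk libraries, fewer cells of a type and less RNA per cell cannot be told apart.

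Because FPKM gives the amount of a transcript only in proportion to the rest of its library, the median of all 12994 genes moved between stages. The median log2 fold change was -0.23 in Baso vs. Pro, -0.20 in Poly vs. Pro, -0.42 in Ortho vs. Pro, 0.03 in Poly vs. Baso and -0.08 in Ortho vs. Poly. It was -0.72 in Ortho vs. Pro when all libraries were rescaled to the same FPKM sum, and -0.03 when hemoglobin genes were left out before that or when libraries were centred on their median. Over all genes, 823 were called higher and 3092 lower in Ortho vs. Pro on the values as deposited, 321 and 4857 with the same sum, 1991 and 1153 without the hemoglobin genes, and 2078 and 1293 after centring. Fold changes below are on the log2(FPKM + 1) scale and use the values as deposited. A gene that is said to have risen or fallen had an adjusted p under 0.05 by limma, and one that was called also reached the limit of 1 on the log2 scale.

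Of the 10 genes, 5 were called higher and 0 lower in Ortho vs. Pro, namely Bnip3l, Ulk1, Gabarapl2, Foxo3 and Map1lc3b. Over all genes tested, 6.33% were called higher and 23.8% lower. At an unadjusted p under 0.05 (limma), 7 of the 10 were higher and 1, Gabarapl1, was lower. These were the same genes as by adjusted p, for which the shares over all genes are given below. The median log2 fold change of the 10 was 0.95. In Baso vs. Pro, Bnip3l was called higher and Gabarapl1 lower, beside 1.82 and 8.54% of all genes, and the same pair was called in Poly vs. Pro, beside 3.59 and 12.8%. None of the 10 was called in Poly vs. Baso, where 0.0616% of all genes were called higher and 0.454% lower. At an unadjusted p under 0.05 (limma) 1 of the 10 differed there, Bnip3, which is also the gene that passed by adjusted p. In Ortho vs. Poly, Bnip3l and Ulk1 were called higher and 0 lower, beside 1.05 and 4.81% of all genes. By adjusted p alone, 4 rose and 1 fell in Baso vs. Pro, beside 14.9 and 42.1% of all genes, 5 and 1 in Poly vs. Pro, beside 23.3 and 42.7%, and 7 and 1 in Ortho vs. Pro, beside 22.7 and 53.2%. In Poly vs. Baso 1 of the 10, Bnip3, rose and 0 fell by this measure, beside 6.58 and 5.77%, and in Ortho vs. Poly 7 rose and 0 fell, beside 4.43 and 21.7%. The comparisons with Pro share the Pro libraries, and those with Poly share the Poly libraries. In 7 genes, all 3 Ortho libraries lay above all 3 Pro libraries, as they did in 23.2% of all genes, and in 7 they lay above all 3 Poly libraries, as in 11.3%. With 3 libraries against 3, an exact permutation test of one gene cannot give a two-sided p below 0.1, so that the tests rest on the spread shared over all genes by limma.

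**Figure D1:**
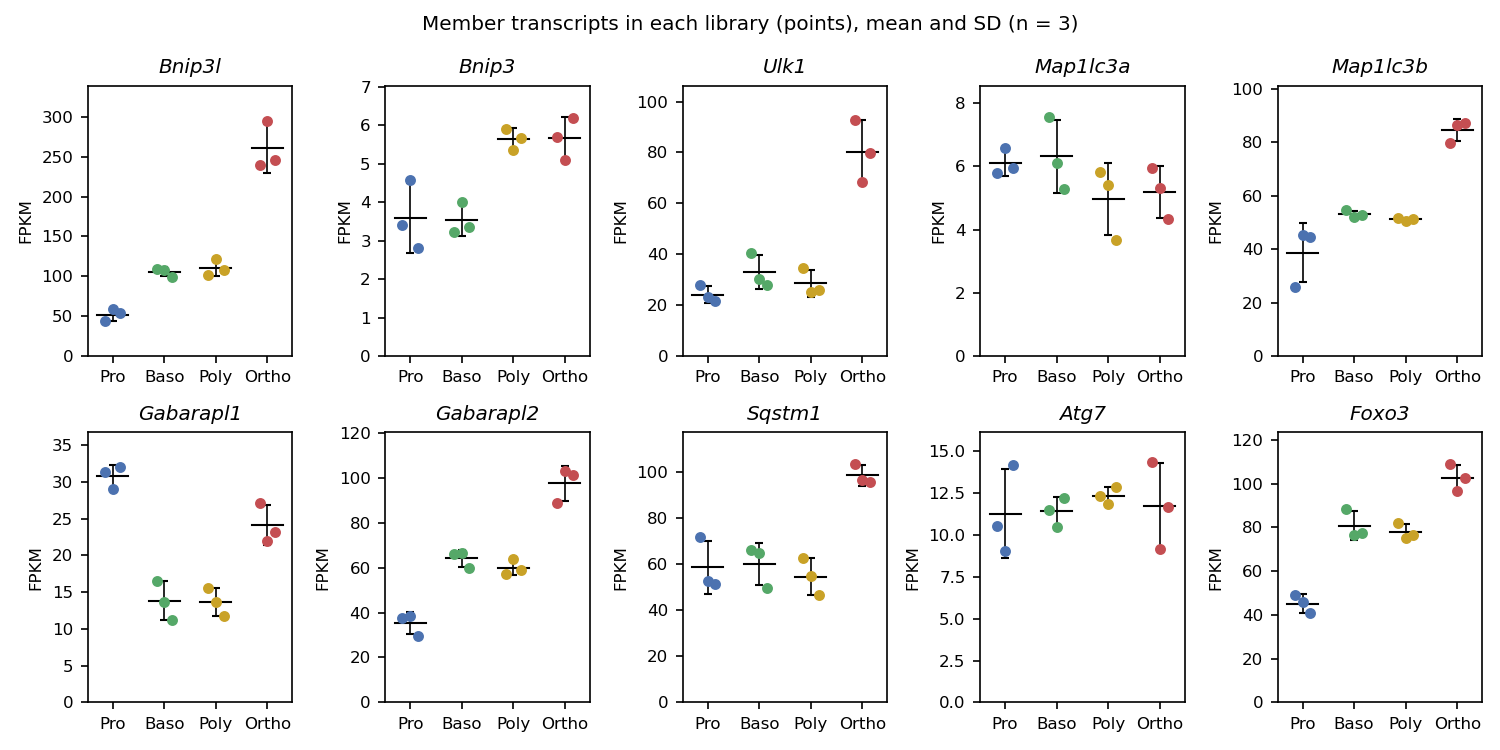
FPKM of each of the 10 genes (vertical axes, each starting at 0) in the 3 libraries of Pro, Baso, Poly and Ortho (points), with the mean as a horizontal bar and the SD as a vertical bar. In Bnip3l, Ulk1, Map1lc3b, Gabarapl2, Sqstm1 and Foxo3 all Ortho libraries lay above every other library, whereas Gabarapl1 was highest in Pro and the stages of Map1lc3a and Atg7 overlapped.

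Bnip3l, the mitophagy receptor with the best known role in red cells, was the gene of the 10 with the largest difference between Ortho and Pro. It lies on chromosome 14 from 66985239 to 67008877 on the minus strand (mm10), with 6 exons in the principal transcript of GENCODE M21. The 3 Pro libraries held 43.5, 58.7 and 53.3 FPKM, and the Baso libraries held 109.7, 108 and 99.7. Poly gave 102, 121 and 108 FPKM, and Ortho gave 239.7, 295 and 246. Baso and Poly overlapped, and both lay above Pro and below Ortho in every library. The gene was called higher by 1.02 ± 0.12 (log2, SE, n = 3 per stage) in Baso vs. Pro, with an adjusted p of 2.55e-05 (limma). In Ortho vs. Pro the difference was 2.31 (95% interval 2.06 to 2.57, adjusted p = 2.14e-08, limma), a 4.96-fold change on this scale. Poly vs. Baso gave 0.06 (95% interval -0.20 to 0.32, adjusted p = 0.778, limma), so the 2 stages did not differ beyond their spread, and Ortho vs. Poly gave 1.23 (adjusted p = 8.74e-06, limma). The difference in Baso vs. Pro stood close to the limit of 1 and was 0.91 without Pro replicate 1, and that in Poly vs. Pro was 1.08 and became 0.97 without it, while rescaling to the same sum gave 0.85 and 0.91. A pseudogene annotated as Bnip3l-ps, for which no test is given, had a mean of 7.03 FPKM in Pro and 32.2 in Ortho, and since the way shared reads were counted is not given, the split between the 2 rows is uncertain.

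Bnip3, its close relative and a receptor known for its induction by low oxygen, was measured at a far lower level. It lies on chromosome 7 from 138890836 to 138909519 on the minus strand, with 6 exons. It measured 3.40, 4.58 and 2.80 FPKM in Pro and 3.23, 4.01 and 3.36 in Baso, where the stages overlapped. In Poly it measured 5.92, 5.37 and 5.69 FPKM and in Ortho 5.70, 5.09 and 6.19, all above every Pro and Baso library. The step fell between Baso and Poly, with a log2 difference of 0.56 (95% interval 0.26 to 0.86, adjusted p = 0.0264, limma), which did not reach the limit for a call. Ortho vs. Pro gave 0.55 (adjusted p = 0.00314, limma), and 0.25 with an adjusted p of 0.118 (limma) when libraries were rescaled to the same sum. The ratio of Bnip3l to Bnip3 FPKM was 14.9 ± 3.59 in Pro (SD, n = 3), 30.2 ± 3.60 in Baso, 19.6 ± 2.71 in Poly, then 46.6 ± 9.94 in Ortho. It therefore went up, down and up again along the stages, with no overlap between the libraries of neighbouring stages.

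Ulk1, the kinase that starts the formation of autophagosomes, was called higher only in Ortho among the stages set against Pro. It lies on chromosome 5 from 110784488 to 110810097 on the minus strand and has 28 exons. The Pro libraries held 27.9, 23.1 and 21.4 FPKM and the Baso libraries 40.6, 30.1 and 28.1, so that Baso lay just above Pro in every library. Poly, with 34.6, 25.1 and 26.1 FPKM, overlapped with both. Ortho reached 92.9, 68.3 and 79.8 FPKM, and replicate 1 was the highest library in every stage. The log2 difference was 0.42 in Baso vs. Pro (95% interval 0.05 to 0.79, adjusted p = 0.0507, limma) and 0.23 in Poly vs. Pro (adjusted p = 0.251, limma). It was 1.69 in Ortho vs. Pro (95% interval 1.32 to 2.06, adjusted p = 3.08e-06, limma) and 1.46 in Ortho vs. Poly (adjusted p = 4.34e-05, limma). The Baso and Poly differences from Pro passed the test without hemoglobin genes, at 0.73 and 0.56 (adjusted p of 0.00402 and 0.0124, limma). They also passed after centring, at 0.72 and 0.48 (adjusted p of 0.00336 and 0.0237, limma). With the same sum they were 0.25 and 0.06 and did not pass (adjusted p of 0.262 and 0.803, limma).

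The other genes of autophagy initiation were listed by complex. Their calls in Ortho vs. Pro stand beside 6.33% of all genes called higher and 23.8% called lower. The list medians were 0.0 for the ULK complex, -0.17 for the class III PI3K complex and -0.21 for ATG9, ATG2 and WIPI proteins. The median over all genes was -0.42. Of the 4 other genes tested that were listed for the ULK complex, Rb1cc1, the scaffold FIP200, was called higher in Ortho vs. Pro, from 11.1 ± 1.64 to 27.5 ± 4.04 FPKM (SD, n = 3), with a log2 difference of 1.24 ± 0.12 (SE, adjusted p = 3.34e-06, limma). The other 3 did not pass. In the class III PI3K complex, which makes the lipid signal for membrane growth, 1 of 8 was called, Atg14, which directs the complex to autophagy. Atg14 measured 4.43 ± 0.0334 FPKM in Pro, 4.71 ± 0.838 in Baso, 4.21 ± 0.482 in Poly, then 11.9 ± 1.55 in Ortho, so its change lay in the last step, with a log2 difference of 1.31 in Ortho vs. Poly (adjusted p = 9.08e-06, limma). Of 7 genes for ATG9, ATG2 and WIPI proteins, which supply lipid and mark the growing membrane, Atg9a was called higher (1.10, adjusted p = 2.50e-05, limma) and Atg2b and Wipi1 lower (-1.10 and -1.04 with adjusted p of 7.17e-07 and 2.75e-06, limma). Rb1cc1, Atg14 and Atg9a fell below the limit of 1 when libraries were rescaled to the same sum (0.89, 0.92 and 0.74), and Atg2b and Wipi1 did so when hemoglobin genes were left out (-0.67 and -0.57), while each kept its direction under the 3 other scalings.

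**Figure D2:**
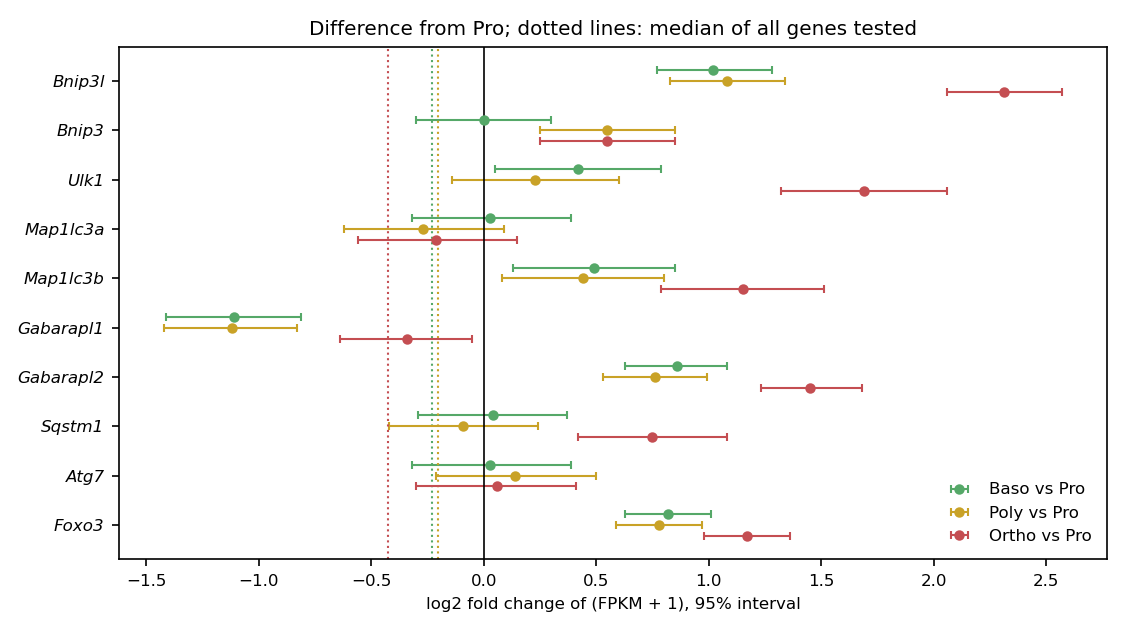
Log2 fold change of (FPKM + 1) from Pro (horizontal axis) for the 10 genes in Baso, Poly and Ortho, with 95% intervals from limma and the median of all genes tested in each comparison as a dotted line. Intervals of Baso and Poly overlapped in each gene, and those of Ortho stood apart from both to the right in Bnip3l, Ulk1, Gabarapl1, Gabarapl2 and Sqstm1.

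LC3 and GABARAP proteins are coupled to lipid on the autophagosome membrane, where receptors bind them, and 4 of the 10 genes belong to this family. Map1lc3b, which encodes the LC3 form most used as an autophagosome marker, lies on chromosome 8 from 121590361 to 121598760 on the plus strand with 4 exons. It measured 25.9, 45.5 and 44.6 FPKM in Pro, 54.5, 51.9 and 52.8 in Baso, 51.6, 50.4 and 51.4 in Poly, then 79.8, 86.6 and 87.5 in Ortho. Pro replicate 1 was far below the other 2 Pro libraries, and Ortho lay above all other stages. The gene was called higher in Ortho vs. Pro by 1.15 (95% interval 0.79 to 1.51, adjusted p = 5.52e-05, limma), and without Pro replicate 1 the difference was 0.89, which passed the test but not the limit for a call. It rose by 0.49 in Baso vs. Pro (adjusted p = 0.0241, limma), which was 0.23 without Pro replicate 1, still passing the test, and 0.31 with an adjusted p of 0.103 (limma) after rescaling to the same sum, and by 0.71 in Ortho vs. Poly (adjusted p = 0.00621, limma). An annotated gene on the same strand, Gm20388, overlaps it and reached at most 0.511 FPKM in any library.

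Gabarapl2, on chromosome 8 from 111940703 to 111953612 on the plus strand with 4 exons, was likewise highest in Ortho and lowest in Pro. It measured 37.4, 38.6 and 29.6 FPKM in Pro, 66.0, 66.7 and 59.9 in Baso, 57.1, 63.8 and 59.1 in Poly, then 88.7, 103 and 101 in Ortho. Only Baso and Poly overlapped among neighbouring stages, with a difference of -0.10 (95% interval -0.32 to 0.13, adjusted p = 0.585, limma). The gene rose by 0.86 ± 0.10 in Baso vs. Pro (log2, SE, adjusted p = 3.71e-05, limma), was called higher by 1.45 in Ortho vs. Pro (adjusted p = 2.02e-07, limma) and rose by 0.69 in Ortho vs. Poly (adjusted p = 0.000312, limma).

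Gabarapl1 went the other way. It lies on chromosome 6 from 129533160 to 129542346 on the plus strand with 4 exons. Its Pro libraries held 31.3, 29.0 and 32.0 FPKM, the Baso libraries 16.5, 13.7 and 11.3, the Poly libraries 15.6, 13.6 and 11.8 and the Ortho libraries 27.1, 21.9 and 23.2. Every Pro library was above every other library, and every Ortho library was above those of Baso and Poly. The gene was called lower by -1.11 in Baso vs. Pro (95% interval -1.41 to -0.81, adjusted p = 4.03e-05, limma) and by -1.12 in Poly vs. Pro (adjusted p = 2.56e-05, limma), and then rose by 0.78 in Ortho vs. Poly (adjusted p = 0.000974, limma). Both calls were lost, at an unchanged direction, when hemoglobin genes were left out or libraries were centred on their median. In Ortho vs. Pro it differed by -0.34 (adjusted p = 0.0366, limma), which was 0.13 without hemoglobin genes and 0.05 after centring, so that the direction of this difference depends on the scaling.

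Map1lc3a, on chromosome 2 from 155276297 to 155278073 on the plus strand with 4 exons, was the lowest of the 4. It measured 5.80, 6.57 and 5.95 FPKM in Pro, 7.57, 6.11 and 5.29 in Baso, 5.83, 5.41 and 3.67 in Poly, then 5.95, 5.31 and 4.32 in Ortho, and all stages overlapped. No comparison passed the test, with -0.21 in Ortho vs. Pro (95% interval -0.56 to 0.15, adjusted p = 0.266, limma) and -0.30 in Poly vs. Baso (adjusted p = 0.245, limma). When Baso, Poly and Ortho alone were modelled with their replicate numbers as a block, the latter had an adjusted p of 0.0434 (limma).

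Set against each other, these genes changed the make-up of the family's transcripts. The fifth family member measured, Gabarap, is named for this purpose after its values were seen. It was the most abundant of the 5 in Pro, Baso and Poly, at 91.0 ± 6.0, 108 ± 3.60 and 111 ± 3.36 FPKM (SD, n = 3), and measured 93.8 ± 1.52 in Ortho. Its share of the summed FPKM of the 5 genes was 45.1 ± 2.83% in Pro, 44.1 ± 1.70% in Baso, 46.1 ± 1.23% in Poly, then 30.7 ± 0.956% in Ortho. The share of Gabarapl2 was 17.4 ± 2.14% in Pro, 26.1 ± 0.677% in Baso, 24.9 ± 1.57% in Poly, then 31.9 ± 1.67% in Ortho. Map1lc3b took 19.1 ± 5.03% in Pro, where its libraries ranged from 13.4 to 22.7%, and 27.7 ± 0.677% in Ortho. Gabarapl1 took 15.3 ± 1.56% in Pro, 5.61 ± 0.934% in Baso, 5.67 ± 0.695% in Poly, then 7.91 ± 1.13% in Ortho. The sum itself was 201.7 ± 11.2 FPKM in Pro, 245.7 ± 8.04 in Baso, 240.7 ± 3.71 in Poly, then 305.3 ± 8.69 in Ortho. A share within a library does not depend on how the library is scaled. The smallest p that an exact permutation test of these shares could give between 2 stages is 0.1.

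**Figure D3:**
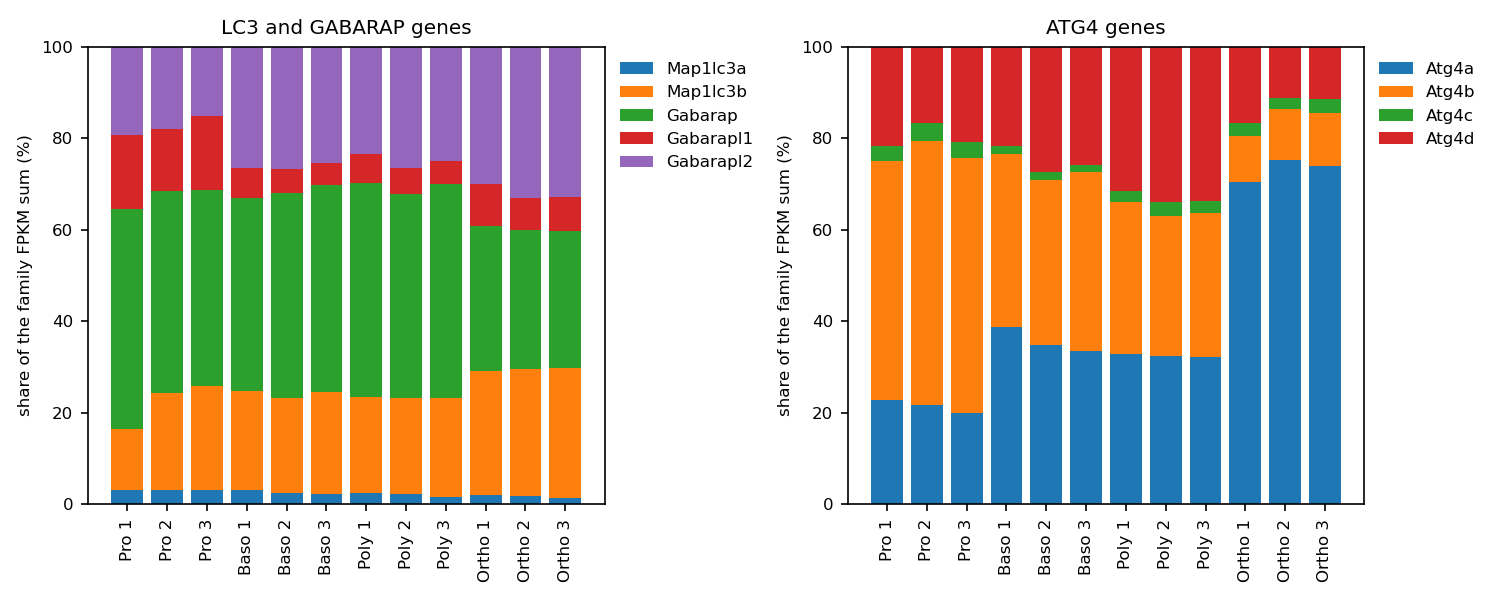
Share of the summed FPKM of the family (vertical axis, %) taken by each LC3 and GABARAP gene (left) and each ATG4 gene (right) in the 12 libraries, as stacked bars. The Gabarap share had a mean of 46.1% in Poly and 30.7% in Ortho, and that of Atg4a went from 21.4% in Pro to 73.2% in Ortho.

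The ATG4 proteases, which trim LC3 and GABARAP proteins before coupling and release them from lipid afterwards, changed places. Atg4a measured 21.2, 21.8 and 17.8 FPKM in the Pro libraries, 52.2, 46.4 and 42.9 in Baso, 38.4, 34.1 and 35.1 in Poly, then 97.3, 98.7 and 104 in Ortho. Atg4b measured 48.6, 58.5 and 49.9 FPKM in Pro, 51.1, 47.8 and 50.2 in Baso, 38.8, 32.2 and 34.1 in Poly, then 13.9, 14.4 and 16.5 in Ortho. Neither gene's Ortho libraries overlapped with those of any other stage. Atg4a was called higher by 2.25 in Ortho vs. Pro (95% interval 2.04 to 2.46, adjusted p = 5.96e-09, limma) and Atg4b lower by -1.74 (95% interval -1.95 to -1.53, adjusted p = 3.61e-08, limma), and both were called under each of the 3 other scalings. The ratio of Atg4a to Atg4b was 0.389 ± 0.0425 in Pro (SD, n = 3), 0.949 ± 0.0852 in Baso, 1.03 ± 0.0352 in Poly, then 6.71 ± 0.391 in Ortho. Atg4d, named after its values were seen, went from 19.7 ± 2.66% of the ATG4 sum in Pro to 33.0 ± 1.29% in Poly, then 13.1 ± 3.16% in Ortho, and its difference of -1.01 in Ortho vs. Poly was called (adjusted p = 0.000216, limma), while without hemoglobin genes it was -0.88 and after centring -0.86, short of the limit for a call. Atg4a and Atg4b were the 2 called of the 10 genes for conjugation and ATG4 proteases that were tested in Ortho vs. Pro, and the 10 had a median of 0.06.

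Atg7, the enzyme that activates LC3 and GABARAP proteins for coupling to lipid, did not pass the test in any comparison on the values as deposited. It lies on chromosome 6 from 114643097 to 114860614 on the plus strand with 20 exons. It measured 10.5, 9.05 and 14.2 FPKM in Pro, 11.5, 10.5 and 12.2 in Baso, 12.3, 11.8 and 12.9 in Poly, then 14.4, 9.18 and 11.6 in Ortho. The stages overlapped, and the Pro and Ortho libraries spread more widely than those of Baso and Poly. In Ortho vs. Pro the difference was 0.06 (95% interval -0.30 to 0.41, adjusted p = 0.764, limma), so changes within this interval remain compatible with these libraries. The value was -0.28 (adjusted p = 0.153) with libraries rescaled to the same sum, and it passed the test at 0.51 (adjusted p = 0.00974) without hemoglobin genes and at 0.45 (adjusted p = 0.0189) after centring, all by limma. Poly vs. Pro likewise passed under those 2 scalings, at 0.46 (adjusted p = 0.018, limma) and 0.39 (adjusted p = 0.0402, limma).

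Sqstm1 encodes p62, a receptor that carries ubiquitin-marked cargo to the autophagosome. It lies on chromosome 11 from 50199366 to 50210827 on the minus strand with 8 exons. The libraries of Pro held 71.9, 52.6 and 51.3 FPKM, those of Baso 65.9, 64.7 and 49.6, those of Poly 62.6, 54.7 and 46.5 and those of Ortho 103, 96.3 and 95.4. The first 3 stages overlapped and Ortho lay above them all. The difference was 0.04 in Baso vs. Pro (adjusted p = 0.834, limma) and -0.09 in Poly vs. Pro (adjusted p = 0.599, limma), and the gene rose by 0.75 in Ortho vs. Pro (95% interval 0.42 to 1.08, adjusted p = 0.000735, limma) and by 0.85 in Ortho vs. Poly (adjusted p = 0.0011, limma). It was not called in these comparisons. In Ortho vs. Pro it gave 0.39 (adjusted p = 0.0407, limma) with libraries rescaled to the same sum. It was called there at 1.24 without hemoglobin genes and at 1.15 after centring. Mrnip, which overlaps Sqstm1 on the opposite strand, had a mean of 5.09 FPKM in Pro and 1.51 in Ortho, for which no test is given, and whether strand was used in counting is not stated.

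Of 6 other cargo receptors tested, 2 were called higher and 0 lower in Ortho vs. Pro, beside 6.33 and 23.8% of all genes, and their median was 0.20. Calcoco1, a receptor for the endoplasmic reticulum, measured 7.5, 8.82 and 6.47 FPKM in Pro, 14.6, 14.1 and 10.8 in Baso, 14.7, 14.0 and 13.3 in Poly, then 43.6, 39.2 and 45.1 in Ortho. Its difference of 2.35 in Ortho vs. Pro (adjusted p = 2.78e-08, limma) was as large as that of Bnip3l to within the SE of either. Tax1bp1, a receptor for ubiquitin-marked cargo, went from 53.4 ± 2.43 to 110 ± 6.32 FPKM (SD, n = 3), with a difference of 1.03 (adjusted p = 4.25e-07, limma) that was 0.66 after rescaling to the same sum.

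Foxo3 lies on chromosome 10 from 42181841 to 42276755 on the minus strand, with 4 exons. It measured 49.1, 45.8 and 40.7 FPKM in Pro, 88.3, 76.4 and 77.4 in Baso, 81.9, 75.3 and 76.6 in Poly, then 109, 96.5 and 102 in Ortho. Every Baso and Poly library lay above every Pro library, the 2 stages overlapped with each other, and Ortho lay above both. The gene rose by 0.82 ± 0.09 (log2, SE) in Baso vs. Pro (adjusted p = 1.51e-05, limma) and by 0.78 in Poly vs. Pro (adjusted p = 1.39e-05, limma). It was called higher by 1.17 in Ortho vs. Pro (95% interval 0.98 to 1.36, adjusted p = 2.85e-07, limma). Poly vs. Baso gave -0.05 (95% interval -0.24 to 0.14, adjusted p = 0.763, limma) and Ortho vs. Poly 0.39 (adjusted p = 0.00513, limma), and the last was 0.20 with an adjusted p of 0.157 (limma) after rescaling to the same sum. Foxo3 thus differed by 0.82 between Pro and Baso and by 0.39 between Poly and Ortho, where Bnip3l differed by 1.02 and 1.23, and whether the steps differ from each other was not tested. The ratio of Bnip3l to Foxo3 FPKM was 1.16 ± 0.237 in Pro (SD, n = 3), 1.31 ± 0.0869 in Baso, 1.42 ± 0.183 in Poly, then 2.56 ± 0.447 in Ortho.

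Foxo3 was the most abundant FOXO gene in every library, with 67.9 ± 1.09% of the summed FPKM of the 4 family genes in Pro, 73.0 ± 1.28% in Baso, 74.1 ± 2.03% in Poly, then 69.5 ± 1.78% in Ortho. Foxo4 took 29.4 ± 0.866% in Pro and 27.9 ± 1.73% in Ortho, and Foxo6 was below the filter. Of 10 other FOXO genes and regulators tested, Foxo4 was called higher in Ortho vs. Pro (1.04, adjusted p = 3.16e-07, limma) and Sirt1, a deacetylase that acts on FOXO proteins, lower (-1.10, adjusted p = 2.06e-06, limma). Foxo4 was at 0.68 after rescaling to the same sum, and Sirt1 at -0.64 without hemoglobin genes.

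Of 17 genes listed as known FOXO targets, 8 were called higher and 2 lower in Ortho vs. Pro, beside 6.33 and 23.8% of all genes, with a median of 0.96. The largest difference was that of Cat, which encodes catalase and breaks down hydrogen peroxide, with 33.6, 44.5 and 38.1 FPKM in Pro, 83.7, 80.4 and 69.7 in Baso, 76.5, 83.1 and 77.6 in Poly, then 250.0, 257 and 263 in Ortho. Its difference was 2.71 in Ortho vs. Pro (adjusted p = 3.10e-09, limma) and 1.69 in Ortho vs. Poly (adjusted p = 2.22e-07, limma). Cdkn1b, the cell cycle inhibitor p27, went from 17.0 ± 2.71 FPKM in Pro to 101 ± 33.7 in Ortho (SD, n = 3), a difference of 2.46 (adjusted p = 2.94e-07, limma), and its Ortho libraries ranged from 76.8 to 139. Gadd45a, a stress and growth arrest gene, went from 74.8 ± 7.41 to 255 ± 18.1 FPKM, a difference of 1.76 (adjusted p = 2.84e-07, limma). The 2 called lower were Bcl2l11, the death gene BIM, at -1.40 and Sod2, the mitochondrial superoxide dismutase, at -1.08. Under the other scalings 4 (same sum) or 14 (no hemoglobin genes, or centred) of the 17 were called higher, and 2 (same sum) or 0 (no hemoglobin genes, or centred) were called lower, with Bcl2l11 and Sod2 then short of the limit for a call. Over all genes, 321 (same sum), 1991 (no hemoglobin genes) and 2078 (centred) were called higher, and 4857, 1153 and 1293 lower.

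The bases before the start of 4 of the genes are shown because Foxo3, Ulk1 and Gabarapl2 were called higher in Ortho while Gabarapl1 was called lower in Baso and Poly. The sequences are from RefSeq on GRCm38.p6, run 5′ to 3′ on the strand of the gene and end before the GENCODE M21 gene begins. Capitals mark the forkhead core TAAACA and the CACCC box, on either strand.
Foxo3 (chr10:42276756-42276945, minus strand): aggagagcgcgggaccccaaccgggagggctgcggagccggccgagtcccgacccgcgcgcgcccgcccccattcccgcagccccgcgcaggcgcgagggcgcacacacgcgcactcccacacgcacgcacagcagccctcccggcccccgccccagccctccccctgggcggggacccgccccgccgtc
Ulk1 (chr5:110810098-110810331, minus strand): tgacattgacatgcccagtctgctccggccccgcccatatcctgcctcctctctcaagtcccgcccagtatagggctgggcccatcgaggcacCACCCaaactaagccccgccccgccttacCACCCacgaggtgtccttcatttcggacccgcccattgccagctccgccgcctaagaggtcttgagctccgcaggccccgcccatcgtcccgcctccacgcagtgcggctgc
Gabarapl2 (chr8:111940453-111940702, plus strand): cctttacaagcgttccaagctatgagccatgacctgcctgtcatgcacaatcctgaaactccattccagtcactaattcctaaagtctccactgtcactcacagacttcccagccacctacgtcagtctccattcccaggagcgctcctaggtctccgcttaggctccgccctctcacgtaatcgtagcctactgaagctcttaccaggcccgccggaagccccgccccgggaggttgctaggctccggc
Gabarapl1 (chr6:129532942-129533159, plus strand): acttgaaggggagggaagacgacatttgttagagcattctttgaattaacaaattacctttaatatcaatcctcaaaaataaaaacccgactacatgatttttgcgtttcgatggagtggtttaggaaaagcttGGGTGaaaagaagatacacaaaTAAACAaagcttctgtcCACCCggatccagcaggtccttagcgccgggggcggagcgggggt

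Counted back from the RefSeq start, the forkhead core of Gabarapl1 stood at -94 to -89, with CACCC boxes at -116 to -112 and -77 to -73, and the CACCC boxes of Ulk1 stood at -157 to -153 and -128 to -124. GC content was 81.6% in the Foxo3 stretch, 66.2% in Ulk1, 57.2% in Gabarapl2 and 43.6% in Gabarapl1. For the shares, 250 bases before the RefSeq start were searched on both strands. The forkhead core TAAACA was present in 1 of the 8 members with a promoter entry, Gabarapl1, and in 12% of all 32851 promoters. The longer FOXO motif GTAAACA, which contains the core, was in 0 of 8 and in 3.17% of all, and the GATA motif AGATAA was in 0 of 8 and 9.99% of all. CACCC was in 4 of 8, namely Gabarapl1, Map1lc3b, Sqstm1 and Ulk1, and in 52.0% of all, and the E-box CACGTG was in Atg7 and Bnip3 and in 6.02% of all. Bnip3l and Map1lc3a had no entry. A match is a run of letters and not a bound site.

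Of 12 other mitophagy genes tested in Ortho vs. Pro, 1 was called higher and 4 lower, beside 6.33 and 23.8% of all genes. Their median of -0.43 was near that of all genes, -0.42. Pink1, the kinase that marks damaged mitochondria, measured 27.4, 34.6 and 31.8 FPKM in Pro, 38.9, 47.9 and 43.8 in Baso, 38.7, 46.0 and 46.5 in Poly, then 72.3, 98.0 and 102 in Ortho, and differed by 1.50 in Ortho vs. Pro (adjusted p = 1.66e-06, limma). Phb2, an inner membrane protein known as a mitophagy receptor, measured 267, 264 and 303 FPKM in Pro, 92.9, 100.2 and 99.5 in Baso, 77.0, 77.1 and 72.5 in Poly, then 67.8, 66.4 and 68.0 in Ortho. It was called lower by -2.03 in Ortho vs. Pro (adjusted p = 2.06e-09, limma), and -1.5 was reached in Baso vs. Pro. Pgam5, a mitochondrial phosphatase, was called lower by -1.52 (adjusted p = 7.27e-07, limma), and the other 2 called lower were the outer membrane receptors Bcl2l13 and Fkbp8 at -1.40 and -1.09. Pink1, Phb2 and Pgam5 were called under each of the 3 other scalings, while 5 genes were called lower with the same sum and 2 without hemoglobin genes or after centring.

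Genes for the channels of the mitochondrial outer membrane and for protein import, listed with the mitochondrial DNA factor Tfam, fell together in these libraries. All 13 tested fell in Ortho vs. Pro, and 12 of them were called, all but Tomm5. Over all genes, 53.2% fell and 23.8% were called lower. The log2 differences of the 13 ranged from -1.62 to -1.0 (rounded) with a median of -1.18. The import pore gene Tomm40 went from 71.0 ± 10.5 FPKM in Pro to 22.3 ± 1.21 in Ortho (SD, n = 3, difference -1.62, adjusted p = 1.49e-07, limma), the channel gene Vdac1 from 113 ± 7.38 to 40.1 ± 1.18 (-1.47, adjusted p = 3.04e-08, limma) and Vdac3 from 128 ± 17.6 to 49.3 ± 1.33 (-1.35, adjusted p = 1.13e-07, limma). Most of the difference was already present in Baso, where 13 of 13 fell with a median of -1.15, beside 42.1% of all genes that fell. In Ortho vs. Poly 0 of 13 were called, beside 4.81% of all genes called lower. By adjusted p 2 fell, the same number as at an unadjusted p under 0.05 (limma), beside 21.7% of all genes that fell. The list depends on the scaling for its calls, since 13 were called lower with the same sum, 1 without hemoglobin genes and 2 after centring, while all 13 differences stayed below 0, from -1.13 to -0.52 without hemoglobin genes. Over all genes, 4857, 1153 and 1293 were called lower under these scalings. The same 3 scalings left Bnip3l called higher.

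Autophagosome fusion genes, which join the autophagosome to the lysosome, had 0 called higher and 3 lower of 14 in Ortho vs. Pro, with a median of -0.49, beside 23.8% called lower and a median of -0.42 over all genes. The 3 were Vamp8 and Stx17, which belong to the fusion complex, at -1.22 and -1.09 (adjusted p of 1.02e-06 and 3.69e-06, limma), and Vps16, of the tethering complex, at -1.04 (adjusted p = 8.86e-07, limma). Snap29, of the same fusion complex and named after its values were seen, went the other way. It measured 8.74 ± 0.579 FPKM in Pro and 15.1 ± 1.07 in Ortho (SD, n = 3), without overlap, and was not called. By adjusted p, 3 of the 14 rose and 9 fell, beside 22.7 and 53.2% of all genes. Without hemoglobin genes or after centring, 3 genes of this list were called higher and 0 lower. Over the 62 tested genes of all autophagy and mitophagy lists other than the 10, 7 were called higher and 10 lower in Ortho vs. Pro, beside 6.33 and 23.8% of all genes. Their median of -0.16 lies between the median of 0.95 of the 10 and that of -0.42 of all genes.

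**Figure D4:**
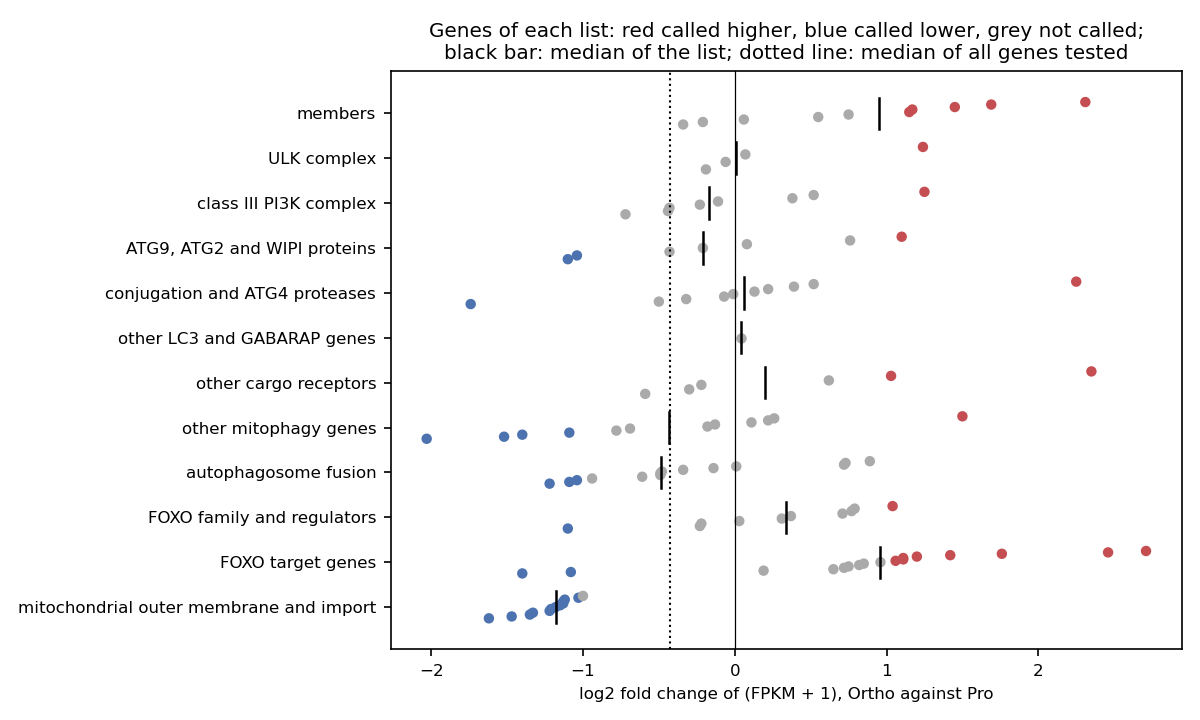
Log2 fold change of (FPKM + 1) in Ortho vs. Pro (horizontal axis) for each gene of the 10 and of the other lists, coloured red when called higher, blue when called lower and grey otherwise, with the list median as a black bar and the median of all genes (-0.42) as a dotted line. The 10 genes have 5 red points and a median of 0.95, and the 13 genes of the mitochondrial list lie between -1.62 and -1.0 after rounding, with 12 of them called lower.

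The genes most like Bnip3l, Ulk1 and Foxo3 over the 12 libraries were sought among 6011 genes with a mean of at least 10 FPKM, by the root mean square difference of log2(FPKM + 1) after centring each gene on its mean. For Bnip3l these were Dcaf12 at 0.102, Adipor1 at 0.136 and Mkrn1 at 0.148. Dcaf12, a substrate receptor of a ubiquitin ligase, had means of 34.6, 76.1, 78.5 and 193 FPKM in Pro, Baso, Poly and Ortho, and Mkrn1, another ubiquitin ligase gene, went from 185 to 962. For Ulk1 they were Yipf4 at 0.143, Serinc1 at 0.170 and Ibtk at 0.175, with Yipf4 at 23.4 FPKM in Pro and 84.4 in Ortho. For Foxo3 they were Osbpl8 at 0.070, Abtb1 at 0.088 and Eif2ak1, the heme-regulated kinase of translation, at 0.10. Eif2ak1 had means of 59.2, 119, 98.5 and 129 FPKM, in the order of the stages.

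In Ortho vs. Pro, on the values as deposited, Bnip3l stood 2.74 above the median of all genes, Ulk1 2.12, Gabarapl2 1.88, Foxo3 1.59, Map1lc3b 1.58, Sqstm1 1.18, Bnip3 0.98, Atg7 0.48, Map1lc3a 0.22 and Gabarapl1 0.08. Bnip3l, Ulk1 and Gabarapl2 were called higher under the 4 scalings. Foxo3 and Map1lc3b were called under 3 of them and gave 0.80 and 0.79 with libraries rescaled to the same sum, with adjusted p of 1.73e-05 and 0.000589 (limma).

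**Figure D5:**
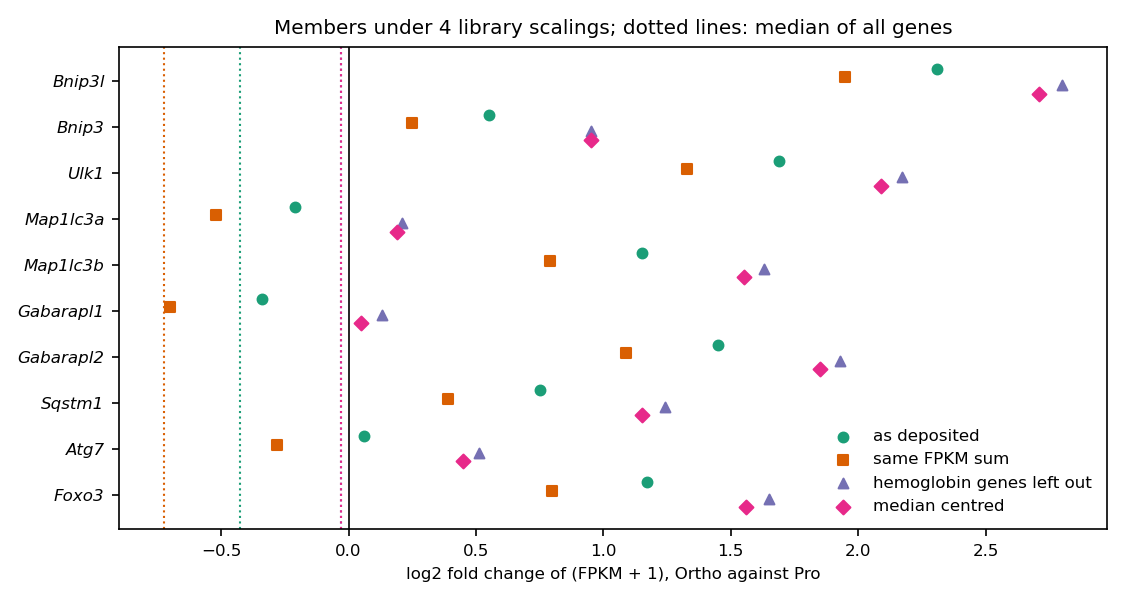
Log2 fold change of (FPKM + 1) in Ortho vs. Pro (horizontal axis) of the 10 genes with FPKM as deposited, rescaled to the same sum, rescaled without hemoglobin genes, and centred on the median, with the median of all genes under each scaling as a dotted line. Bnip3l, Ulk1 and Gabarapl2 lie above 1 under all 4, whereas Map1lc3a, Gabarapl1 and Atg7 lie on both sides of 0.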

How the data were processed

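Titles in the labels gave each library its stage and number. Ortho replicates 2 and 3 carry only a general erythroblast cell type in the labels. According to the labels and the study's methods, the authors trimmed reads with Cutadapt and Trimmomatic, aligned them to mm10 with HISAT2, used SAMtools and counted with featureCounts, and deposited FPKM values for each gene and library. Versions, the annotation, the strand setting and the tool that made the FPKM are not given in the sources used here, and the labels and the methods name different library kits. One repeated identifier was removed from 29839 lines, leaving 29838 genes, of which 29785 were found in GENCODE M21. FPKM holds no counts, so depth is unknown and no counting error is given.

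The 12994 genes that reached 1 FPKM in 3 or more libraries were tested on log2(FPKM + 1), with a pseudocount of 1, by limma 3.58.1 in R 4.3.3 with a variance trend, all 12 libraries in one model, two-sided, and Benjamini-Hochberg adjustment over all genes. Genes were called when the adjusted p was under 0.05 and the log2 fold change was 1 or more in size. The study's DESeq2 comparison used counts and was not repeated. The limma step was tested on simulated data. Tables and figures were made with Python 3.11.15, pandas 2.3.3 and matplotlib 3.10.9.

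The members, gene lists and tests were chosen with earlier results of these data known. All 10 members were named, and in each other list up to 3 genes with the largest absolute difference in Ortho vs. Pro among those called, with the exceptions given. Alternatives were pseudocounts of 0.1 and 5, no filter, a mean of at least 5 FPKM, 3 other scalings, no variance trend, only the 2 stages compared, a replicate block, adjusted p alone and leaving out each library. Same-numbered libraries of Baso, Poly and Ortho deviated together (correlations of 0.156 to 0.319). Same-numbered pairs with Pro also had correlations above 0, but weaker ones (0.00524 to 0.0968). The labels give no source for this pairing.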

Additional observations from a re-analysis of the deposited data

How the results depend on the processing

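Over 515 combinations of a result and an alternative other than leaving out a library, 471 kept direction and side of the threshold. With a pseudocount of 5, the members called higher and lower in Baso vs. Pro went from 1 and 1 to 0 and 0, and those called lower in Poly vs. Pro to 0. With libraries rescaled to the same sum, 0 were called higher in Baso vs. Pro and in Poly vs. Pro and 3 in Ortho vs. Pro. Over all 12994 genes, 175, 283 and 321 were called higher in these 3 comparisons. Without hemoglobin genes, and also after centring, 3 were called higher and 0 lower in Baso vs. Pro and in Poly vs. Pro. Without hemoglobin genes, 488 of all 12987 genes were called higher and 421 lower in Baso vs. Pro, and 1323 and 742 in Poly vs. Pro. After centring, 554 of all 12994 genes were called higher and 409 lower in Baso vs. Pro, and 1220 and 925 in Poly vs. Pro. By adjusted p alone, 4 were higher in Baso vs. Pro, 5 in Poly vs. Pro, 1 in Poly vs. Baso and 7 in Ortho vs. Poly, and 1 was lower in Ortho vs. Pro. Leaving out 1 library gave 0 to 1 higher (0 without Pro replicate 1 or Baso replicate 1) and 0 to 1 lower (0 without Baso replicate 3) in Baso vs. Pro, 0 to 1 higher in Poly vs. Pro (0 without Pro replicate 1) and 4 to 5 higher in Ortho vs. Pro (4 without Pro replicate 1).

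Directions turned for differences that had not passed the test as deposited, with Gabarapl1 in Ortho vs. Pro as the exception. That gene had fallen by -0.34 (adjusted p = 0.0366, limma). Rescaling to the same sum gave -0.12 for Map1lc3a, -0.14 for Sqstm1 and -0.13 for Atg7 in Baso vs. Pro, -0.02 for Atg7 in Poly vs. Pro, -0.28 for Atg7 in Ortho vs. Pro and -0.09 for Map1lc3a in Ortho vs. Poly. Without hemoglobin genes, Bnip3 gave 0.24 in Baso vs. Pro and 0.12 in Ortho vs. Poly, Map1lc3a 0.03 in Poly vs. Pro and 0.21 in Ortho vs. Pro, Gabarapl1 0.13 in Ortho vs. Pro and 0.02 in Poly vs. Baso, Sqstm1 0.25 in Poly vs. Pro and Atg7 0.04 in Ortho vs. Poly. Centring gave 0.29 and 0.15 for the 2 of Bnip3, 0.19 for Map1lc3a and 0.05 for Gabarapl1 in Ortho vs. Pro, 0.15 for Sqstm1 in Poly vs. Pro and 0.06 for Atg7 in Ortho vs. Poly. The cause was not tested beyond the scaling itself. Leaving out 1 library turned the sign within these ranges: Bnip3l -0.01 to 0.12 and Foxo3 -0.08 to 0.02 in Poly vs. Baso, Gabarapl1 -0.14 to 0.12 there, Bnip3 -0.13 to 0.14 in Baso vs. Pro and -0.06 to 0.06 in Ortho vs. Poly, Map1lc3a -0.09 to 0.14 and -0.10 to 0.17 in the same 2, Sqstm1 -0.05 to 0.19 in Baso vs. Pro and -0.20 to 0.06 in Poly vs. Pro, and Atg7 -0.10 to 0.20 in Baso vs. Pro, -0.09 to 0.22 in Ortho vs. Pro and -0.23 to 0.06 in Ortho vs. Poly.

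With the replicate number as a block over all 4 stages, the counts of members called stayed at 5 higher in Ortho vs. Pro and 2 in Ortho vs. Poly, and Ulk1 passed the test at 0.42 in Baso vs. Pro (adjusted p = 0.00158, limma) and at 0.23 in Poly vs. Pro (adjusted p = 0.0281, limma). Same-numbered pairs with Pro had weaker correlations than those among the other stages, and whether the libraries are paired is not stated in the labels. The test of Map1lc3b in Baso vs. Pro was lost in 3 alternatives and without Baso replicate 1 or 3, and that of Bnip3 in Poly vs. Baso without a filter and without any one of Baso replicates 1 and 3 and the Poly libraries. The filter on a mean of 5 FPKM removed Bnip3. Depth is unknown, and 3 libraries per stage limit the precision.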
